A study of Mus musculus with 6 samples.

Results

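The heat shock chaperones described here are 10 genes, chosen by symbol: Hspa1a, Hspa1b, Hspa8, Hsph1, Dnajb1, Bag3, Hsp90aa1, Hsp90ab1, Hspd1 and Hspe1. All 10 had a row among the 24047 rows of the count table, and all 10 passed the filter on low counts that left 10454 tested genes. The samples were 6 RNA libraries of mouse splenic CD4 T cells (strain B6.129, 7 weeks old), 3 labelled Srsf1-cKO and 3 labelled WT. The Srsf1-cKO mice carried floxed alleles of Srsf1, a splicing factor gene, and a dLck.Cre transgene, in which a promoter of the T cell kinase gene Lck drives the recombinase, so that the deletion is aimed at T cells. Naive cells of every library were activated for 72 h with anti-CD3 (0.5 µg/mL) and anti-CD28 (1 µg/mL) and then given PMA (100 ng/mL) and ionomycin (1 µM) for 4 h. The study's text gives 3 mice per genotype.

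Heat shock proteins bind other proteins and help them fold, refold or be degraded. HSP70 proteins hold unfolded stretches in a cycle of ATP hydrolysis that J-domain proteins start and nucleotide exchange factors end, and HSP90 acts later on kinases and receptors. HSP60 and HSP10 form the folding chamber of mitochondria. When proteins unfold, as in heat, the factor HSF1 binds heat shock elements in DNA, built from inverted GAA units, and raises the inducible members, while the constitutive ones are abundant without stress. T cells raise several chaperones on activation, when they grow and divide.

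The libraries held between 7781283 and 10184268 gene counts. Srsf1 was at 523, 548 and 471 CPM (counts scaled to library size after TMM normalization) in the libraries labelled Srsf1-cKO, and at 540.5, 458 and 486 CPM in WT. Its log2 fold change was 0.06 (SE 0.12, edgeR adjusted p = 0.78), so the count over the whole gene does not bear out the labels. Reads over the floxed part were not counted apart, so this row cannot show whether the deletion took place. Each direction below is that of the libraries as labelled. The T cell markers Cd4 and Cd3g averaged 389.5 and 204 CPM in the libraries labelled Srsf1-cKO, and 465 and 124 CPM in WT. Of 8 T cell markers, only Cd3g had an edgeR adjusted p under 0.05 (0.0452), and 4 had a negative log2 fold change. Markers of other cells were low. Over 6 B cell genes the summed level was 8.26 to 21.4 CPM in the libraries labelled Srsf1-cKO and 1.19 to 6.89 CPM in WT, and over 7 myeloid and dendritic genes it was 24.4 to 35.4 CPM in the libraries labelled Srsf1-cKO and 2.38 to 10.02 CPM in WT. Over 6 CD8 and NK genes it was 27.9 to 47.4 CPM in the libraries labelled Srsf1-cKO and 26.3 to 43.0 CPM in WT, with Ncr1 at 0 counts in every library. Some of these markers rose. The NK receptor genes Klrk1 and Klrd1 averaged 6.81 and 7.92 CPM in the libraries labelled Srsf1-cKO, and 0.173 and 0.854 CPM in WT (edgeR adjusted p = 0.00862 and 0.0105), while Cd8b1 was at 19.95 CPM in the libraries labelled Srsf1-cKO and 30.4 CPM in WT (adjusted p = 0.115). Of the B cell and myeloid markers, Cd79a, H2-Aa and Lyz2 rose, to 2.304, 17.8 and 7.31 CPM in the libraries labelled Srsf1-cKO, against 0.525, 3.22 and 0.874 CPM in WT (adjusted p up to 0.0424). With 1 library left out at a time, Cd79a and Lyz2 stayed at an adjusted p under 0.05 in 2 of 6 fits. H2-Aa did so in 4, Cd3g in 1, and Klrk1 and Klrd1 in 5. Of 6 erythroid genes 5 were at 0 counts in every library. The part of these cells in the results below was not tested. In bulk RNA, fewer cells with a transcript and less of it per cell cannot be told apart.

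RefSeq promoter windows (GRCm38.p6, 250 bases before to 50 after a gene's start) matched 7 of the 10 genes, in 10 windows. Hspa8, Hsp90aa1 and Hsp90ab1 had no entry. The heat shock element was searched for as 3 units, GAA and TTC in turn with any 2 bases (NN) between them, starting with either unit, and as 2 such units. Both orders were searched, which covers both strands, and each match of 3 units holds 2 overlapping matches of 2 units. Only exact units were searched for, so units that differ at a base are left in lower case. In a window with a match of 3 units, separate matches of 2 units are also in lower case, as at position -54 of Hsph1. A window without a match of 3 units may still hold such an imperfect element. The windows of 4 genes are printed as examples. Those of Dnajb1 (no match) and Bag3 (a match of 2 units at position 42), which also fell, and of Hspd1 are not printed. The first pair belongs to the 2 genes with the lowest fold changes of the 10, Hspa1a (chr17:34972107-34972406, minus strand) and Hspa1b (chr17:34959189-34959488, minus strand), and capitals mark the match of 2 units, at position -104 from the start in both. The other pair belongs to Hspe1 (chr1:55087898-55088197, plus strand) and Hsph1 (chr5:149636266-149636565, minus strand), which did not pass the test, and capitals mark matches of 3 units.
Hspa1a: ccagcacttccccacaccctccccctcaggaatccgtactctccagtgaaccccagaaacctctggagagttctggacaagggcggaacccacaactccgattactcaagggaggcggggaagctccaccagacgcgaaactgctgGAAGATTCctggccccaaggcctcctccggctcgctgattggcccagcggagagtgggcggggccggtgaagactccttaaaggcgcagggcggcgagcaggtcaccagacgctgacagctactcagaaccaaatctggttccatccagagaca
Hspa1b: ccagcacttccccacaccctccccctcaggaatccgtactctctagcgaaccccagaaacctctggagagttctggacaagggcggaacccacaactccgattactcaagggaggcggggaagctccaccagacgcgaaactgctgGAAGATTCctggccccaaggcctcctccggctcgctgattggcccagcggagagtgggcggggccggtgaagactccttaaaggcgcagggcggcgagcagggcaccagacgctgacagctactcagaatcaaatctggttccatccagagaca
Hspe1: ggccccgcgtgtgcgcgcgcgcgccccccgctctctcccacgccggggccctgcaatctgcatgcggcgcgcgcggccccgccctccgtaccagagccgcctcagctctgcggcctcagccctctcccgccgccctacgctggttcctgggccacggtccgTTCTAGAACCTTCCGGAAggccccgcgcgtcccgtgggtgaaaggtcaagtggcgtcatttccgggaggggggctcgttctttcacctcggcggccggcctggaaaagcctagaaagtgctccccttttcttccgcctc
Hsph1: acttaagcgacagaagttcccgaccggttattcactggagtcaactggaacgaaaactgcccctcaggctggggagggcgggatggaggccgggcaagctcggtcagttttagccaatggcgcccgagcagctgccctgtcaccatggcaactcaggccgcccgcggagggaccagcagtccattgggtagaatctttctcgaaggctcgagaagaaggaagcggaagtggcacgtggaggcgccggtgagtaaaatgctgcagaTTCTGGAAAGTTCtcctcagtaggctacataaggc

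The Hspa1a and Hspa1b windows were identical at 296 of 300 bases (98.7%). A match of 3 units stood in windows of 3 genes, Hsph1, Hspd1 and Hspe1, against 0.662% of all 27025 genes with a window. A match of 2 units stood in windows of 6 of the 7 genes, all but Dnajb1, against 17% of all genes. Hspa1a and Hspa1b, with their near-identical windows, are not independent matches among these. Hspd1 and Hspe1 lie head to head, and one Hspd1 window overlaps that of Hspe1 by 285 bases. The capitals in the Hspe1 window are overlapping matches at positions -89 and -84 from its start, and in the Hspd1 window matches stand at -144 and -139 from its own. They are the same bases read on opposite strands, so the 2 genes do not count as separate matches. In the Hsph1 window shown the match lies at position 15 after the start. These letters describe the windows and are not measured binding.

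Among the 10 chaperones, 5 fell in the libraries labelled Srsf1-cKO and 0 rose by edgeR's quasi-likelihood test at an adjusted p under 0.05, with p-values adjusted over all 10454 genes. The 5 were Hspa1a and Hspa1b, which encode inducible HSP70, Hspa8, which encodes its constitutive relative HSC70, Dnajb1, which encodes the J-domain partner HSP40, and Bag3, which encodes a nucleotide exchange factor. Over all tested genes, 9.5% were called lower and 8.9% higher (18.4% in either direction). At an unadjusted p under 0.05 the counts among the chaperones were also 5 lower and 0 higher, and DESeq2 gave the same 2 numbers. Hspa1a and Hspa1b are near-identical copies, and with their counts summed into 1 row the number called lower was 4. The median log2 fold change was -0.49 over the 10 genes and 0.01 over all genes. The 10 genes were chosen with earlier results of these data known, so these comparisons are a description only. Both HSP90 genes, both genes of the mitochondrial chamber and Hsph1 did not pass.

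The number that fell depended on single libraries. With WT replicate 1 left out it was 1, with Srsf1-cKO replicate 2 left out it was also 1, and in both cases the gene was Hspa1b. It lay between 4 and 6 without each of the others. All tested genes called lower numbered 115 and 103 without those libraries, instead of 993.

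**Figure D1:**
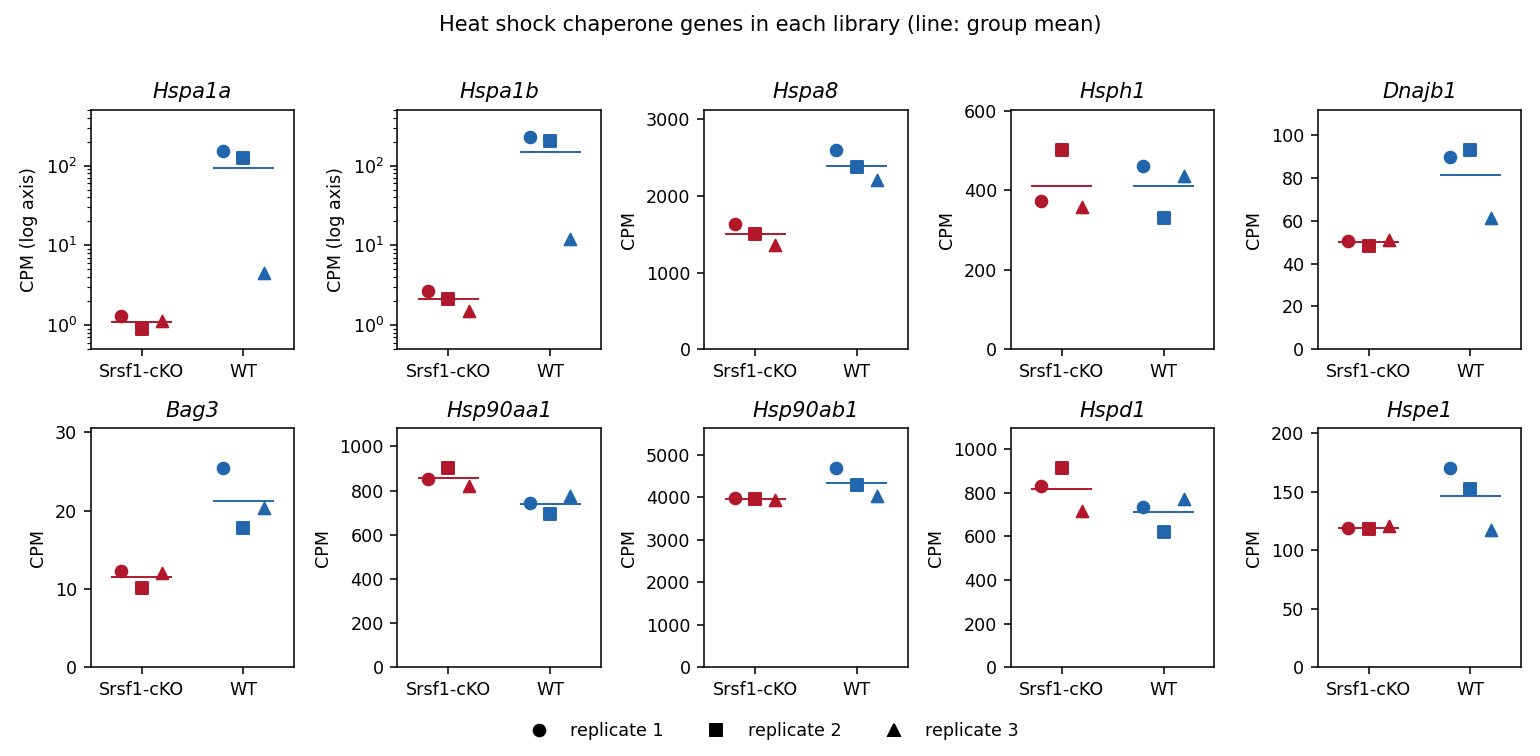
CPM of each chaperone gene in each library, with the libraries labelled Srsf1-cKO in red at left and WT in blue at right. Symbols give the replicate number and lines the group means, and Hspa1a and Hspa1b are on a log axis. WT replicate 3 stands at 4.49 CPM for Hspa1a and 12.01 CPM for Hspa1b, far under the other 2 WT libraries and above all libraries labelled Srsf1-cKO.

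Inducible HSP70 was the most changed and the most uneven. Hspa1a was at 1.297, 0.893 and 1.13 CPM in the libraries labelled Srsf1-cKO (12, 8 and 12 counts), against 154, 126 and 4.49 CPM in WT (1396, 965 and 34 counts). Hspa1b was at 2.70, 2.12 and 1.502 CPM in the libraries labelled Srsf1-cKO (25, 19 and 16 counts), against 226, 206 and 12.01 CPM in WT (2043, 1583 and 91 counts). For both genes WT replicates 1 and 2 were high, WT replicate 3 was low, and the libraries labelled Srsf1-cKO were lower still, with no overlap between the groups. Such a lack of overlap, with the libraries labelled Srsf1-cKO below, held for 6 of the 10 chaperones and for 19.5% of all tested genes.

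The log2 fold change was -6.40 for Hspa1a (SE 1.15, edgeR adjusted p = 0.0109) and -6.14 for Hspa1b (SE 0.998, adjusted p = 0.00862). On the linear scale Hspa1b fell by 98.6%, with a 95% confidence interval of -99.7% to -93.2%. These group values mix WT libraries that differ widely among themselves. Relative to the mean of the libraries labelled Srsf1-cKO, Hspa1b was 107 times as high in WT replicate 1, 97.7 times in WT replicate 2 and 5.697 times in WT replicate 3. For Hspa1a the ratios were 139.6, 113.6 and 4.06.

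The gap between the libraries labelled Srsf1-cKO and WT replicate 3 was larger than counting error for Hspa1b and for Hspa1a. By exact 95% Poisson intervals, the highest upper bound of Hspa1b among the libraries labelled Srsf1-cKO was 3.99 CPM, and the interval in WT replicate 3 was 9.67 to 14.75 CPM. For Hspa1a the highest upper bound among the libraries labelled Srsf1-cKO was 2.27 CPM, and the lower bound in WT replicate 3 was 3.11 CPM. These intervals cover counting error only, and not the difference between mice.

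Without WT replicate 3, the log2 fold change was -6.98 for Hspa1a and -6.70 for Hspa1b (edgeR adjusted p = 4.175e-07 for both). Hspa1a did not pass without WT replicate 1 (-5.88, adjusted p = 0.0536) or without Srsf1-cKO replicate 2 (-6.28, adjusted p = 0.0558), whereas Hspa1b passed without each of the 6 libraries (adjusted p up to 0.0474). With limma-voom neither passed, at -5.33 and adjusted p = 0.0705 for Hspa1b. The deposited FPKM table, in which fragments are scaled by transcript length and depth, showed the same order. There Hspa1b stood at 1.27, 0.913 and 0.707 FPKM in the libraries labelled Srsf1-cKO, against 108, 106 and 5.31 FPKM in WT.

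Hspa1a and Hspa1b are near-identical copies, and reads from their common stretches may be shared between the rows or lost from both. Which of these took place was not tested. In GENCODE M21 transcripts, 52.7% of the 2893 stretches of 75 bases (the read length) in Hspa1a occur unchanged in Hspa1b, and 55.8% of those in Hspa1b occur in Hspa1a. Hspa1b held 67.6%, 70.4% and 57.1% of the pair's counts in the libraries labelled Srsf1-cKO, and 59.4%, 62.1% and 72.8% in WT. Summed into 1 row, the pair had 37, 27 and 28 counts in the libraries labelled Srsf1-cKO, against 3439, 2548 and 125 counts in WT. The log2 fold change of the sum was -6.24 (SE 1.03, edgeR adjusted p = 0.00873), and the summed pair passed as well.

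The spread of the pair within WT was far above that of most genes. For Hspa1a the highest library was 1.45 times the lowest among those labelled Srsf1-cKO and 34.4 times among WT. For Hspa1b the ratios were 1.799 among the libraries labelled Srsf1-cKO and 18.8 among WT. Among the 8132 tested genes that averaged 3 or more in log2 CPM, the median ratio was 1.26 in the libraries labelled Srsf1-cKO and 1.31 in WT. By this ratio in WT, Hspa1a ranked 1 and Hspa1b ranked 5. These ranks are a description only, as the chaperones were chosen with differences between the WT replicates known. The pair are near-identical copies, so their ranks are not independent. Both reached that average only through WT replicates 1 and 2. Among the 15 of the 8132 genes with a WT ratio of 10 or more, WT replicate 3 was the highest WT library in 8 and the lowest in 7. For 4 of the 8132 genes both WT replicates 1 and 2 were at least 10 times as high as WT replicate 3. These were Hspa1a, Hspa1b, the chemokine receptor gene Cxcr4 and the chemokine gene Ccl22, of which the last 2 were chosen after their values were seen. Cxcr4 stood at 24.5, 15.3 and 9.76 CPM in the libraries labelled Srsf1-cKO and at 112, 85.7 and 7.52 CPM in WT. Ccl22 stood at 70.9, 94.0 and 23.6 CPM in the libraries labelled Srsf1-cKO and at 16.1, 27.2 and 1.19 CPM in WT. The other 8 chaperones had WT ratios between 1.12 and 1.52.

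**Figure D2:**
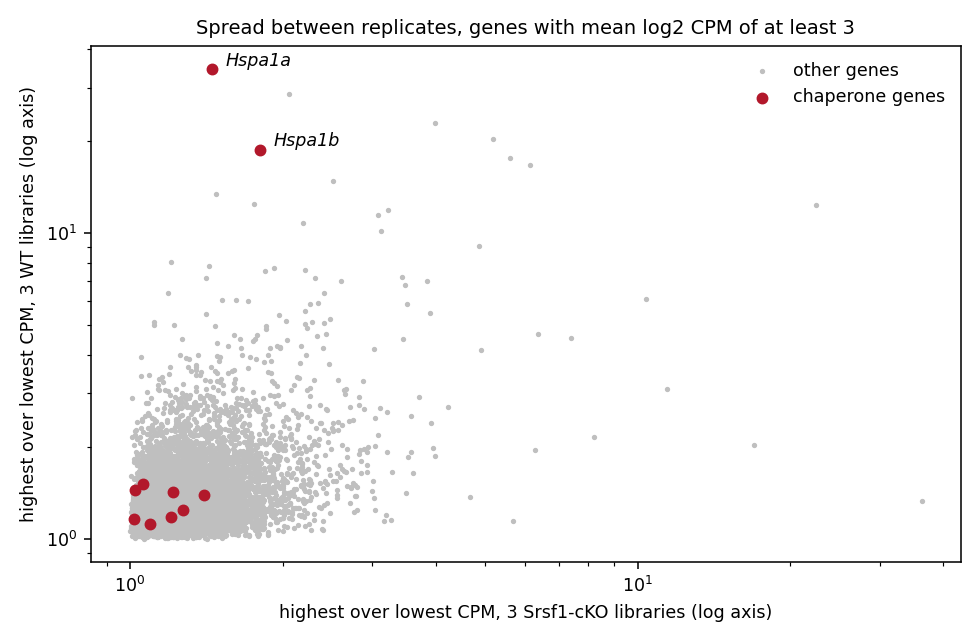
Highest over lowest CPM among the 3 libraries labelled Srsf1-cKO (horizontal, log axis) and among the 3 WT libraries (vertical, log axis), for the 8132 genes that averaged 3 or more in log2 CPM. Hspa1a and Hspa1b lie at 1.45 and 1.799 on the horizontal axis and at 34.4 and 18.8 on the vertical one, while the other 8 chaperones (red) lie within the bulk of genes.

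Among the alignment metrics, splices per 100 uniquely mapped reads numbered 27.1, 26.9 and 27.1 in the libraries labelled Srsf1-cKO, and 29.6, 30.5 and 27.9 in WT, so WT replicate 3 was again nearest to the libraries labelled Srsf1-cKO. The groups overlapped for reads mapped to several loci, which made up 15.5%, 14.9% and 15.9% of the libraries labelled Srsf1-cKO, and 17.0%, 16.7% and 15.7% of WT. Their part in the result was not tested.

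By the Pearson correlation of log2 CPM over the 6 libraries, the non-member genes most like the summed pair were Rpl10 (r = 0.994), Tceanc2 (0.993), Nr1h2 (0.992), Rplp2 (0.991) and Rpl39 (0.991). Rpl10, Rplp2 and Rpl39 encode ribosomal proteins. Rplp2 was at 437, 381 and 422 CPM in the libraries labelled Srsf1-cKO, against 839, 785 and 529 CPM in WT. With 6 points in 2 groups, such values describe how the levels run over these libraries and nothing more. Among the chaperones, Dnajb1 was nearest to the pair (r = 0.995) and Hsp90aa1 ran opposite to it (r = -0.892).

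Hspa8, which encodes the constitutive HSP70 of the cytosol and was the chaperone with the highest mean FPKM, fell moderately. It was at 1633, 1503 and 1355 CPM in the libraries labelled Srsf1-cKO, against 2601, 2378 and 2205 CPM in WT. All 3 WT libraries lay above all 3 libraries labelled Srsf1-cKO, with WT replicate 3 the lowest of WT by a small margin. The log2 fold change was -0.68 (SE 0.13, edgeR adjusted p = 0.0117), a fall by 37.5% with a 95% confidence interval of -48.8% to -23.6%. It did not pass when WT replicate 1 (-0.63, adjusted p = 0.0585) or Srsf1-cKO replicate 2 (-0.68, adjusted p = 0.0662) was left out. Other loci carry copies of Hspa8, and 68.6% of its stretches of 75 bases occur in transcripts of other genes. Reads from such stretches may be lost from its row or shared with others, and how many were was not tested.

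Dnajb1 encodes the J-domain protein that hands substrates to HSP70 and starts its ATP hydrolysis. It was at 50.5, 48.4 and 51.3 CPM in the libraries labelled Srsf1-cKO, against 90.1, 93.3 and 61.5 CPM in WT. The libraries labelled Srsf1-cKO lay close together, and WT replicate 3 stood nearest to them. The log2 fold change was -0.71 (SE 0.17, edgeR adjusted p = 0.0271). The call was lost without any library other than WT replicate 3 (log2 fold changes of -0.72 to -0.61, adjusted p up to 0.112), and without WT replicate 3 the value was -0.89 (adjusted p = 0.00444). On log2(FPKM + 1) limma gave adjusted p = 0.0564.

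Bag3 encodes a co-chaperone that releases ADP from HSP70 and links it to autophagy. It was at 12.3, 10.2 and 12.1 CPM in the libraries labelled Srsf1-cKO, against 25.4, 17.8 and 20.3 CPM in WT. Here WT replicate 2 was the lowest of WT, and the groups did not overlap. The log2 fold change was -0.88 (SE 0.197, edgeR adjusted p = 0.0198). It did not pass when WT replicate 1 (-0.74, adjusted p = 0.0906) or Srsf1-cKO replicate 2 (-0.79, adjusted p = 0.0969) was left out. Neither Dnajb1 nor Bag3 shared a stretch of 75 bases with another gene's transcripts.

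**Figure D3:**
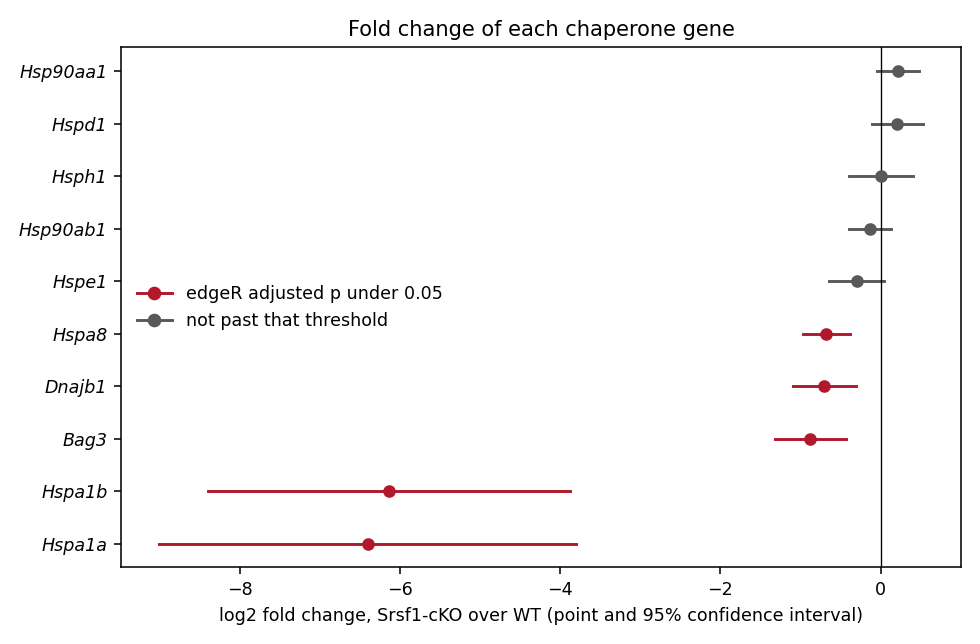
Log2 fold change of each chaperone gene, Srsf1-cKO over WT, with its 95% confidence interval from edgeR. The 5 genes in red passed at an adjusted p under 0.05 and run from -6.40 (Hspa1a) to -0.68 (Hspa8), and the intervals of the 5 in grey include 0.

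Hsph1, which encodes HSP110, another nucleotide exchange factor of HSP70, did not pass, with a fold change near 0. It was at 374, 502 and 358 CPM in the libraries labelled Srsf1-cKO, against 462, 331 and 436 CPM in WT, and the groups overlapped. The log2 fold change was 0.01 (SE 0.18, edgeR adjusted p = 0.988), with a 95% confidence interval of -24.1% to 32.7%. Its sign changed with RLE scaling and without some libraries.

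The HSP90 genes did not pass the test in either direction. Hsp90aa1, which encodes the more inducible HSP90 alpha, was at 852, 902 and 822 CPM in the libraries labelled Srsf1-cKO, against 745, 694 and 775 CPM in WT. All 3 libraries labelled Srsf1-cKO lay above WT, which among the chaperones held for this gene only and over all tested genes for 19.9%, with a log2 fold change of 0.22 (SE 0.11, edgeR adjusted p = 0.208). Hsp90ab1, which encodes the constitutive HSP90 beta, was at 3992, 3951 and 3929 CPM in the libraries labelled Srsf1-cKO, against 4688, 4295 and 4030 CPM in WT. All 3 libraries labelled Srsf1-cKO lay below WT, by a small margin from WT replicate 3, with a log2 fold change of -0.13 (SE 0.12, adjusted p = 0.443). The 95% confidence intervals were -2.78% to 39.2% for Hsp90aa1 and -23.8% to 9.28% for Hsp90ab1. Of the stretches of 75 bases, 53.1% in Hsp90aa1 and 0.736% in Hsp90ab1 occur in transcripts of other genes.

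Hspd1 and Hspe1 encode the mitochondrial chaperonin HSP60 and its lid HSP10, and they start from neighbouring sites on opposite strands. Hspd1 was at 828, 912 and 716 CPM in the libraries labelled Srsf1-cKO, against 736, 620 and 773 CPM in WT. Hspe1 was at 119, 118 and 121 CPM in the libraries labelled Srsf1-cKO, against 170, 153 and 117 CPM in WT. The groups overlapped for both genes, and for Hspe1 through WT replicate 3 alone. Neither passed, with log2 fold changes of 0.21 for Hspd1 (SE 0.14, edgeR adjusted p = 0.329) and -0.30 for Hspe1 (SE 0.15, adjusted p = 0.192). The 95% confidence intervals were -7.57% to 44.0% for Hspd1 and -36.0% to 2.94% for Hspe1. Without WT replicate 3, Hspe1 passed at -0.45 (adjusted p = 0.0401). Of their stretches of 75 bases, 33.7% in Hspd1 and 29.1% in Hspe1 occur in transcripts of other genes.

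FPKM is scaled by length and so lets levels be set side by side between genes. In the libraries labelled Srsf1-cKO the order by mean was Hspa8 (1306 ± 117 FPKM, SD, n = 3), Hsp90ab1 (1267 ± 20.3), Hsp90aa1 (436 ± 28.9), Hspd1 (424 ± 56.2), Hspe1 (336 ± 1.58), Hsph1 (92.1 ± 19.5), Dnajb1 (17.9 ± 0.357), Bag3 (3.58 ± 0.311), Hspa1b (0.962 ± 0.283) and Hspa1a (0.727 ± 0.158). Within this order Hspa8 and Hsp90ab1, Hsp90aa1 and Hspd1, and Hspa1b and Hspa1a differed by less than the larger SD of each pair. In WT the order was Hspa8 (1943 ± 144 FPKM, SD, n = 3), Hsp90ab1 (1289 ± 71.9), Hspe1 (392 ± 40.4), Hsp90aa1 (345 ± 14.0), Hspd1 (343 ± 30.5), Hsph1 (84.1 ± 12.0), Hspa1b (73.3 ± 58.9), Hspa1a (60.4 ± 49.5), Dnajb1 (27.2 ± 5.80) and Bag3 (6.12 ± 0.905). Hsp90aa1 and Hspd1 were again within their spread, and the rank of the Hspa1 pair was not fixed. In WT replicates 1 and 2 both copies ranked just above Hsph1, and in WT replicate 3 they ranked last, as in each library labelled Srsf1-cKO.

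The Hspa1 pair together made up 0.0551%, 0.0388% and 0.0362% of the FPKM summed over the 10 chaperones in the libraries labelled Srsf1-cKO, against 4.15%, 4.11% and 0.207% in WT. Hspa8 made up 35.6%, 33.0% and 32.2% of that sum in the libraries labelled Srsf1-cKO, against 42.5%, 42.7% and 42.5% in WT. The share of Hspa8 was thus even across WT, unlike that of the inducible pair.

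Other genes of the chaperone system were taken from lists by known function, and their counts stand against 8.9% of all tested genes called higher and 9.5% called lower. Of 4 tested genes for heat shock factors and their regulator, Hsf2 rose and Hsf4 fell (unadjusted 1 and 1, DESeq2 1 and 1). Hsf2 averaged 127 ± 6.82 CPM in the libraries labelled Srsf1-cKO and 74.0 ± 8.65 CPM in WT (SD, n = 3 each), with a log2 fold change of 0.78 (SE 0.13, edgeR adjusted p = 0.00984). Hsf4 rests on 6 counts in all over the libraries labelled Srsf1-cKO and 30 over WT. Hsf1, which encodes the main activator of the heat shock response, averaged 43.1 ± 1.92 CPM in the libraries labelled Srsf1-cKO and 39.4 ± 5.86 CPM in WT (adjusted p = 0.591).

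Of 6 other HSP70 and HSP110 genes, 1 rose and 0 fell (unadjusted p under 0.05 in 2 higher and 0 lower, DESeq2 1 and 0). Hspa14, which encodes a ribosome-bound HSP70, rose to 144 ± 10.5 CPM in the libraries labelled Srsf1-cKO, against 87.1 ± 10.3 CPM in WT (log2 fold change 0.72, edgeR adjusted p = 0.0115). Hspa4, the most abundant, averaged 846 CPM in the libraries labelled Srsf1-cKO and 883 CPM in WT (adjusted p = 0.784). Of 18 other J-domain genes, 2 rose and 0 fell (unadjusted 4 and 3, DESeq2 2 and 2). Dnajc10, which encodes a reductase of the endoplasmic reticulum (ER), and Dnajc19, which encodes a protein of the mitochondrial import motor, rose with log2 fold changes of 0.597 and 0.82. Dnaja2, the most abundant, stood at 502 CPM in the libraries labelled Srsf1-cKO and 504 CPM in WT. None of 8 nucleotide exchange and BAG genes passed edgeR (0 of 8, with 1 higher and 1 lower at an unadjusted p under 0.05, and 0 by DESeq2).

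Of 15 HSP90 co-chaperone genes, 4 rose and 1 fell (unadjusted 5 and 1, DESeq2 4 and 1). Fkbp4 and Fkbp5, immunophilins of steroid receptor complexes, rose to 232 and 128 CPM in the libraries labelled Srsf1-cKO, against 151 and 86.4 CPM in WT. Nudc rose to 129 CPM in the libraries labelled Srsf1-cKO, against 91.3 CPM in WT. Aarsd1, named after its value was seen, rose to 33.7 CPM in the libraries labelled Srsf1-cKO, against 21.9 CPM in WT. Cdc37, which loads kinases onto HSP90, fell to 185 ± 14.6 CPM in the libraries labelled Srsf1-cKO, against 283 ± 41.8 CPM in WT (log2 fold change -0.61, edgeR adjusted p = 0.0216). Stip1, which bridges HSP70 and HSP90 and had the highest level, had adjusted p = 0.909.

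Of 13 mitochondrial chaperone and protease genes, 3 rose and 0 fell (unadjusted 3 and 1, DESeq2 3 and 0). They were Dnaja3, a J-domain partner of mitochondrial HSP70 (96.0 CPM in the libraries labelled Srsf1-cKO, 58.1 CPM in WT), the protease gene Clpp (29.0 CPM in the libraries labelled Srsf1-cKO, 16.3 CPM in WT) and Trap1, mitochondrial HSP90 (89.0 CPM in the libraries labelled Srsf1-cKO, 62.3 CPM in WT). Hspa9, mitochondrial HSP70, had the highest level and adjusted p = 0.756. Of 13 ER chaperone genes, 1 rose and 0 fell (unadjusted 7 and 1, DESeq2 1 and 1). It was Pdia4, at 123.5 CPM in the libraries labelled Srsf1-cKO and 84.7 CPM in WT (edgeR adjusted p = 0.0197). Hspa5, the ER HSP70, averaged 2405 CPM in the libraries labelled Srsf1-cKO and 1974 CPM in WT (adjusted p = 0.121). Of 8 genes of the cytosolic chaperonin CCT 0 passed edgeR (unadjusted 1 higher and 1 lower, DESeq2 0), and of 2 tested small heat shock protein genes 0 passed (unadjusted 0 higher and 1 lower, DESeq2 0).

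Of 7 polyubiquitin and stress granule genes, 1 fell and 0 rose (unadjusted 1 and 0, DESeq2 1 and 0). This was Sqstm1, an autophagy receptor gene, at 229 ± 52.1 CPM in the libraries labelled Srsf1-cKO and 384 ± 65.8 CPM in WT (adjusted p = 0.031). Of 12 stress immediate early genes, which PMA and ionomycin also raise, 2 rose and 3 fell (unadjusted 2 and 7, DESeq2 2 and 6). A negative log2 fold change was found in 10 of the 12, and in 49.5% of all tested genes. With single libraries left out, 6 fell when this was Srsf1-cKO replicate 1 or WT replicate 3, and 0 when it was Srsf1-cKO replicate 2 or WT replicate 1. For Srsf1-cKO replicate 3 the number was 1, and for WT replicate 2 it was 2. Fosb and Fos rose to 81.9 and 46.3 CPM in the libraries labelled Srsf1-cKO, against 37.7 and 24.7 CPM in WT. Atf3 and Junb were among those that fell, to 64.0 and 535 CPM in the libraries labelled Srsf1-cKO, against 118 and 881 CPM in WT.

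These calls also depended on single libraries. Of the 18 changed genes that the naming rule takes from these lists, 8, 0 and 12 passed without Srsf1-cKO replicate 1, 2 and 3, and 0, 14 and 15 passed without WT replicate 1, 2 and 3 (edgeR adjusted p of lost calls up to 0.138).

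**Figure D4:**
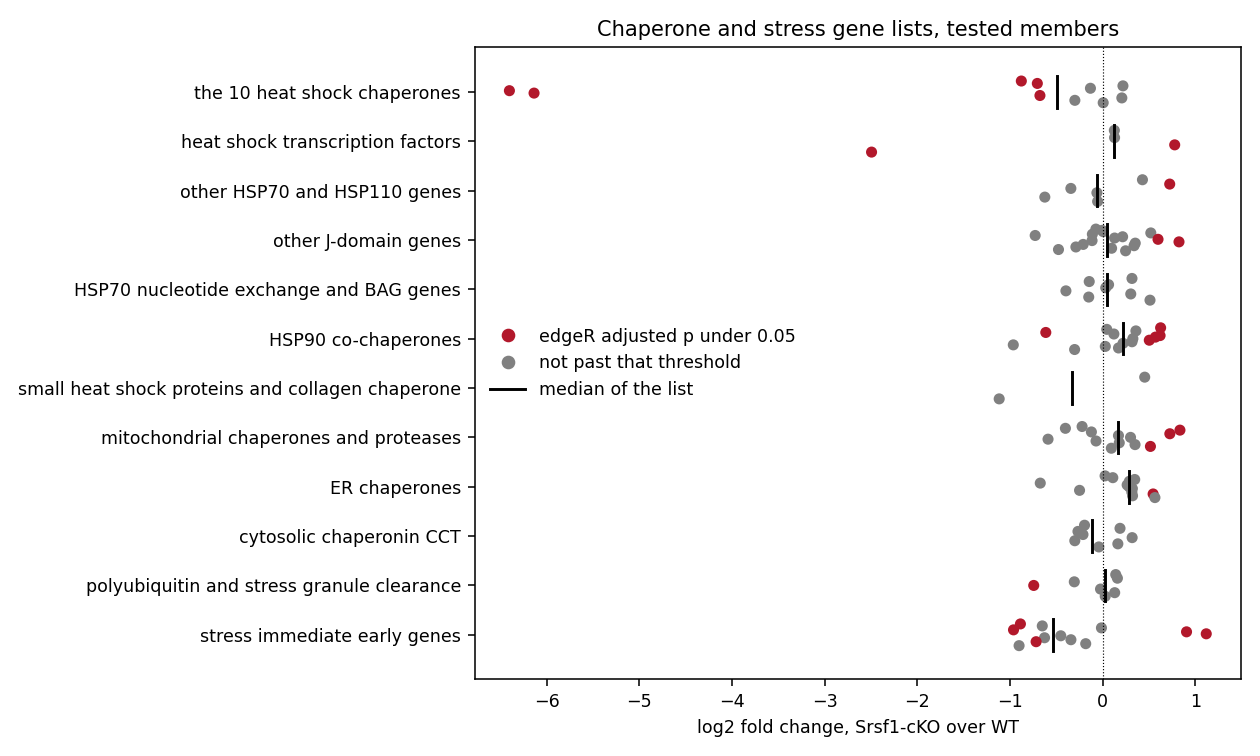
Log2 fold change, Srsf1-cKO over WT, of every tested gene of the chaperone and stress lists, with genes at an edgeR adjusted p under 0.05 in red and the median of each list as a black line. The 10 chaperones have a median of -0.49, with Hspa1a and Hspa1b at the far left, and the medians of the other lists run from -0.54 (stress immediate early genes) to 0.29 (ER chaperones).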

How the data were processed

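RNA was read as stranded mRNA libraries of 75-base single-end reads, per the design text in the labels. Reads were aligned with STAR 2.4.2a, per the file headers, to mm9, per the submitters' processing notes. The authors deposited unnormalized read counts per gene symbol. They also deposited FPKM values, for which the processing notes name Cufflinks. The unit was read from the values, since that table is named as counts. The count table carries STAR in its name. Its annotation and strand setting are not given in the labels or headers, and near-identical or overlapping genes may share reads.

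The main test was edgeR 4.0.16 under R 4.3.3 (quasi-likelihood, two-sided, filterByExpr, TMM, genotype as the only term, Benjamini-Hochberg over all tested genes). Called means an adjusted p under 0.05. FPKM was tested with limma 3.58.1 on log2(FPKM + 1) in the 9617 genes that reached 1 FPKM in 3 or more libraries. Alternatives used DESeq2 1.42.0, limma-voom, other scalings and filters, a replicate block, each library left out, and a sum of Hspa1a and Hspa1b. The fits were tested on simulated data.

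The 10 genes and the lists were chosen with earlier results of these data known. Named genes were all 10 members, up to 4 of each list with the smallest adjusted p, its most abundant gene, and the 5 most correlated with the summed pair, and some are not reported here. The 10 mitochondrially encoded symbols matched no row. Replicates differed by more than sampling noise (chi-square per degree of freedom 6.25 to 37.5).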

Additional observations from a re-analysis of the deposited data

How the results depend on the processing

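The direction of the log2 fold change held under all alternatives for 9 of the 10 chaperones. Hsph1, near 0, changed sign to -0.0048 with RLE scaling, -0.0070 without a low-count filter, -0.0048 with DESeq2 and, with Srsf1-cKO replicate 2 or WT replicate 2 left out, -0.16 or -0.14, and the cause was not tested. The number of chaperones that fell, 5, was 3 with limma-voom, 1 at an adjusted p under 0.01 and 0 by limma on log2(FPKM + 1) without a filter, where 15192 genes were tested. It ranged from 1 to 6 with each library left out, and the number that rose was 0 in every setting. Over all genes, 930 higher and 993 lower became 1452 and 1520 at an adjusted p under 0.1, and 133 and 146 under 0.01. By limma, 615 were lower on log2(FPKM + 1), 607 on log2(FPKM + 0.1) and 390 without a filter. With a library left out, between 80 and 968 were higher and between 103 and 1074 lower. Library-size scaling moved the median of all log2 fold changes to 0.11, with 64.1% of calls higher against 48.4%, and FPKM moved it to 0.10, with 65.9% higher. Under both, changes are relative to that shift.

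Deviations of same-numbered libraries correlated at 0.22, 0.01 and 0.27, and those of differently numbered libraries at -0.32 to 0.20. The labels do not state that shared numbers pair the samples, so the main test used no pairing. With the replicate block 1118 genes were higher and 1152 lower, and no chaperone's call changed. Depth limits Hspa1a and Hspa1b in the libraries labelled Srsf1-cKO, which hold 8 to 25 counts each.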
